A study of Mus musculus with 4 samples.

Results

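A set of 1797 genomic intervals of 5 kb was examined. Their 5-hydroxymethylcytosine (5hmC) reads in neural progenitor cells (NPC) reached 2 times the input level or more and lay on both DNA strands. In the embryonic stem cells (ESC) from which the NPC had been made, the same measure lay below 2. These intervals are called NPC-only tiles here. The name refers to this limit and does not mean that ESC lacked 5hmC in them. The ESC measure lay below 1 in only 402 of the tiles (22.4%). The 1797 tiles were 0.397% of the 452909 tiles of chromosomes 1 to 19 that held enough input reads to be judged. They were also 36.3% of the 4945 tiles with at least 20 NPC 5hmC reads and a 2-fold enrichment in NPC.

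The modified base 5hmC is made from 5-methylcytosine by the TET dioxygenases and is an intermediate of active and passive DNA demethylation. In mammalian cells it is concentrated at gene bodies and at distal regulatory elements, where it often forms short peaks. Mouse ESC carry much 5hmC, and its distribution is remodelled when they enter the neural lineage.

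The ESC were of the mouse 46C line (strain 129/Ola), which carries a GFP reporter of Sox1, a transcription factor of early neural cells. They were grown with serum and leukemia inhibitory factor and had no siRNA or shRNA treatment. The NPC were rosette-like, Sox1-GFP-positive cells of day 9 of a monolayer neural differentiation of the same line, likewise without siRNA or shRNA. Each cell type gave a 5hmC library and an input library, 4 libraries in all with 1 per group. All values therefore come from a single line and a single preparation, without replicates, and compare libraries rather than conditions. No expression was measured, so the identity of the cells could not be checked against marker genes.

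Per the labels' protocols, the DNA of each cell type was sonicated, tagged with its own barcode and mixed in equal amounts in a single tube. After denaturation 10% was set aside as input, and an antibody against 5hmC precipitated the remainder. Because denatured DNA was precipitated, a read's strand shows which strand carried the precipitated molecule. Because both cell types shared the tube, 5hmC reads per input read can also be compared directly between them. The distinct reads on chromosomes 1 to 19 numbered 7042662 in ESC 5hmC, 4944294 in ESC input, 1709355 in NPC 5hmC and 6438000 in NPC input. The NPC 5hmC library gave a mean of 3.76 reads per kept tile against 15.5 in ESC 5hmC, and its counts are the least precise of the 4.

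Distinct reads, at most 1 per position and strand, were counted in tiles by the midpoint of the extended read. A tile was kept with 5 to 115 reads in the summed inputs. The fold of a cell type is its 5hmC reads over its own input reads, each divided by its library total, so that the genome as a whole has a fold close to 1 in either cell type. The tiles were selected by 20 or more NPC 5hmC reads, an NPC fold of at least 2, an ESC fold below 2 (both with 0.5 reads added to each count), and at most 75% of NPC 5hmC reads on 1 strand. These measured values chose the tiles, so the NPC and ESC folds of whole tiles are given below as description. All intervals are 95% intervals, cover counting error only, and take no account of PCR copies or of differences between cultures.

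Of the 452909 kept tiles, 4951 held at least 20 NPC 5hmC reads, and 4945 of these (1.09% of the kept tiles) had an NPC fold of at least 2. The read minimum was therefore the step that selected, and the NPC fold removed 6 tiles at this stage. Of the 4945 tiles, 2604 also had an ESC fold of at least 2 and 2341 did not. From the latter, 544 tiles (23.2%) were left out because over 75% of their NPC 5hmC reads lay on 1 strand. The remaining 1797 tiles are compared below mainly with 2133 tiles that were enriched in both cell types and also had at most 75% of NPC 5hmC reads on 1 strand.

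Many NPC-only tiles lay close to the limits of the rule. Exactly 20 NPC 5hmC reads were found in 343 of them, and 403 further tiles with 19 reads met every other condition. Between 20 and 24 reads were held by 1168 tiles, 30 or more by 263 and 40 or more by 45. The tile at chromosome 1, 9645001 to 9650000 (build mm9, as for all positions below), was just inside with 20 NPC 5hmC reads, and the tile at chromosome 1, 13485001 to 13490000, was just outside with 19. On the ESC side, 347 NPC-only tiles had an ESC fold at most 0.25 below the limit, and 321 tiles with an ESC fold up to 0.25 above it met the rest of the rule. The closest on either side of that limit were chromosome 3, 8985001 to 8990000, with an ESC fold of 1.998, and chromosome 2, 59650001 to 59655000, with 2.002. The lowest NPC fold inside was 2.10, at chromosome 5, 112120001 to 112125000, and the nearest tile below that limit had 1.91, at chromosome 7, 86670001 to 86675000. Exactly 75% of reads on 1 strand was reached by 65 NPC-only tiles, and the nearest tile beyond had 75.4%, at chromosome 8, 12005001 to 12010000. The limits thus cut through dense parts of the distributions of NPC reads and of ESC fold, while only 3 tiles failed on the NPC fold alone.

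In NPC 5hmC the NPC-only tiles held from 20 to 58 reads with a median of 23, against a median of 3 over all kept tiles. In NPC input they held from 5 to 46 reads with a median of 20, against 14. In ESC 5hmC they held from 4 to 93 reads with a median of 31, against 7, and in ESC input from 3 to 42 with a median of 17, against 10. The tiles were thus well covered in both inputs and also held more ESC 5hmC reads than a typical tile. Summed over the 1797 tiles, the NPC fold was 4.58 (4.52 to 4.65) and the ESC fold was 1.35 (1.34 to 1.37). NPC 5hmC reads outnumbered NPC input reads in 1277 tiles (71.1%). The minimum of 20 NPC 5hmC reads, beside a median of 20 NPC input reads, favours this count, so it is description. The share was not computed over all kept tiles.

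**Figure D1:**
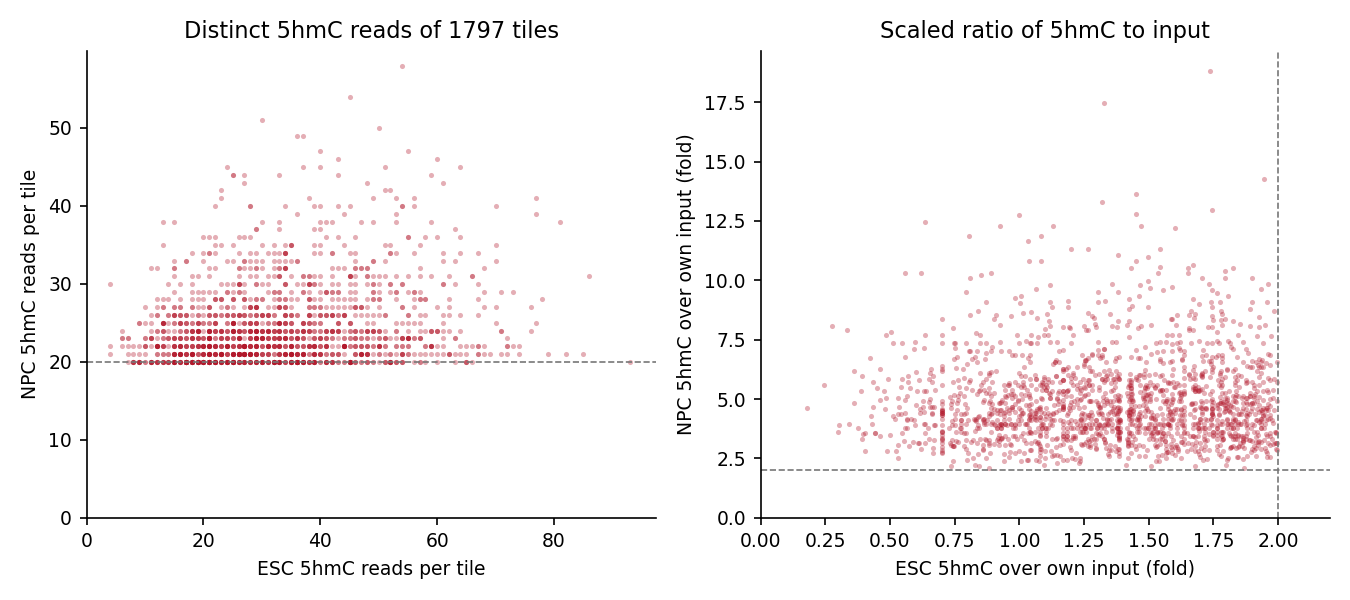
Each point is 1 of the 1797 NPC-only tiles. The left panel plots distinct NPC 5hmC reads against distinct ESC 5hmC reads per tile, with a dashed line at the minimum of 20. The right panel plots the NPC fold against the ESC fold, with dashed lines at the limit of 2. The points crowd against the read minimum and the ESC limit and stay away from the NPC limit.

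An ESC fold below 2 did not mean that ESC lacked 5hmC in these tiles. The ESC fold was below 0.5 in 33 tiles, from 0.5 to 1 in 369, from 1 to 1.5 in 683 and from 1.5 to 2 in 712. Only in 402 tiles (22.4%) did the counting interval of the ESC fold lie wholly below 2, and in 299 tiles (16.6%) it lay wholly above 1. On the NPC side, the interval lay wholly above 2 in 1327 tiles (73.8%) and above 1 in all 1797.

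The ratio of NPC to ESC, with each 5hmC count divided by its own input, compares cell types whose mixed DNA met the antibody together. It is a ratio of reads and was not calibrated to an amount of 5hmC. None of the 4 libraries measured unspecific precipitation. Over chromosomes 1 to 19 this ratio was 0.186, which is 5.37-fold fewer 5hmC reads per input read in NPC. In the NPC-only tiles it was 0.631 (0.619 to 0.643), in the tiles enriched in both 0.264 (0.259 to 0.268), and in 34116 tiles enriched in ESC alone with at least 20 ESC reads 0.0581 (0.0577 to 0.0584). The rule fixes that the ratio of every NPC-only tile exceeds that of the genome, so this part of the order is no finding. As a set the tiles had fewer 5hmC reads per input read in NPC than in ESC. In DNA from bulk cells a lower level in every cell and a loss in some of the cells cannot be told apart. By tile, the ratio ran from 0.21 to 5.48 with a median of 0.656. It lay below 1 in 1443 tiles (80.3%) and above 1 in 354 (19.7%). Its interval excluded 1 from below in 9 tiles and from above in 274. The ratio rose as the ESC fold of the tile fell, from 0.484 (0.470 to 0.499) at an ESC fold of 1.5 to 2, through 0.677 (0.656 to 0.699) and 1.03 (0.985 to 1.08), to 2.17 (1.83 to 2.59) in the 33 tiles below 0.5. This order follows from the definition of the ratio and is a description of the set.

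The 2 inputs were similar in these tiles. The ratio of NPC to ESC input reads was 0.905 (0.892 to 0.919) in the NPC-only tiles and 1.05 (1.03 to 1.06) in the tiles enriched in both. With a minimum of 20 reads, an NPC input at least 2-fold above the ESC input was found in 6 NPC-only tiles (0.334%) against 1.23% of kept tiles. The reverse was found in 29 (1.61%) against 0.597%. A low NPC input and a high ESC input in a tile each favour its selection, and the direction of this difference is the one the rule favours. NPC-only tiles had the deeper inputs and reach 20 reads more often, so their shares and those of kept tiles are not fully comparable. When each tile was set against the summed input of the 2 tiles on each side in place of its own, the NPC fold was 4.78 and the ESC fold 1.54.

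Single tiles show the range of the set. The 8 tiles with the highest NPC fold were taken from the 400 NPC-only tiles with at least 20 reads in each input. The highest was chromosome 8, 123765001 to 123770000, with 58 NPC 5hmC reads over 26 input reads and 54 ESC 5hmC reads over 21. Its NPC fold was 8.40 (5.21 to 13.9) and its ESC fold 1.80 (1.07 to 3.15), without added reads. It also held more NPC 5hmC reads than any other NPC-only tile, and its NPC/ESC ratio of 0.868 (0.412 to 1.82) cannot be told from 1.

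At chromosome 2, 17850001 to 17855000, NPC had 44 5hmC reads over 21 input reads and ESC had 25 over 21. The NPC fold was 7.89 (4.59 to 13.97) and the ESC fold 0.836 (0.449 to 1.57). This tile was among the highest by NPC fold and by NPC/ESC ratio alike, with a ratio of 1.76 (0.751 to 4.12). The other 6 of the 8 tiles had NPC 5hmC counts from 38 to 47 and lay at chromosome 5, 141350001 to 141355000 and 129840001 to 129845000, chromosome 2, 30640001 to 30645000, chromosome 10, 79060001 to 79065000, chromosome 4, 129830001 to 129835000, and chromosome 8, 11885001 to 11890000. In 7 of the 8 tiles ESC held at least 37 5hmC reads. The left neighbour of the tile at chromosome 5, 129840001, was itself enriched in NPC, with 49 5hmC reads over 19 input reads and a fold of 9.56.

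The highest NPC/ESC ratio under the same input minimum was at chromosome 12, 99800001 to 99805000. NPC had 32 5hmC reads over 20 input reads there, and ESC had 11 over 20. The NPC fold was 6.03 (3.34 to 11.1), the ESC fold 0.386 (0.167 to 0.845) and the ratio 2.91 (1.05 to 8.18). The tile was taken as the highest of 400, and its interval comes from the same reads and is not adjusted for that choice. The second, at chromosome 13, 77575001 to 77580000, had 28 NPC 5hmC reads over 27 and 14 ESC 5hmC reads over 33, a ratio of 2.44 (1.003 to 6.05). When copies at a position were counted too, its inputs rose to 73 reads in NPC and 63 in ESC, so its input was stacked at few positions. The next were chromosome 5, 127825001 to 127830000, with 33 NPC and 17 ESC 5hmC reads over 20 input reads each, chromosome 7, 137460001 to 137465000, with 24 and 15, and chromosome 16, 5455001 to 5460000, with 23 and 11. The ratios of these 3 tiles were 1.94, 1.91 and 1.91, and the lower bound of each was under 1.

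Since the tiles were chosen on the reads that describe them, the same rule was also applied to smaller sets of reads that left the rest unused. Tiles were chosen on reads with an even start position, with the read minima reduced in proportion, and measured on reads with an odd start, and the reverse. This gave 5106 choices. In the reads that chose them the NPC fold was 4.67 and the ESC fold 1.27. In the reads left out, the NPC fold was 3.46 (3.42 to 3.50) and the ESC fold 1.56 (1.54 to 1.58). The gap between the cell types was smaller in unused reads but remained wider than its counting error. The NPC fold exceeded the ESC fold in 4328 choices (84.8%), against 63.5% of 4930 choices of tiles enriched in both. The NPC fold was at least 2 in 4060 (79.5%), against 82.8%, so this share was not the higher one in the NPC-only choices. The NPC/ESC ratio in unused reads was 0.413 (0.406 to 0.421), against 0.242 (0.238 to 0.245) for the choices enriched in both. The 2 kinds of choice met the same NPC limits and were divided by the ESC fold. The higher share with NPC above ESC and the higher ratio therefore describe that division. These shares were not computed over all kept tiles.

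The read minimum and the split by strand changed these values. With a minimum of 20 reads in the choosing part, 133 choices had an NPC fold of 6.23 (5.83 to 6.66) and an ESC fold of 1.89 (1.76 to 2.03) in the reads left out. Tiles were also chosen on 1 strand and measured on the other, without the strand limit, which gave 6913 choices. The NPC fold was then 2.85 (2.82 to 2.89) and the ESC fold 1.39 (1.38 to 1.41). In the split by start position without the strand limit they were 3.62 (3.58 to 3.66) and 1.55 (1.53 to 1.56). NPC enrichment was thus also seen on the strand that had not chosen the tile, at a lower level.

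The NPC 5hmC reads were not spread evenly over the 5 kb. In each tile the window of 500 bases with most NPC 5hmC reads of even start was taken as its summit (the first such place where separate places tied, in 335 tiles, 18.6%), and NPC was measured there on reads of odd start. Those reads had no part in placing the summit, but they did count toward the selection of the tile. Over the NPC-only tiles the NPC fold was 19.04 (18.3 to 19.8) in these 500 bases. From 500 to 2500 bases away it was 2.34 (2.29 to 2.40). The width of the peak, midway between its height and the level beyond 4 kb, was 500 bases in steps of 250 bases, which is close to the length of the extended reads (350 bases), so the width of the modified stretch cannot be read more finely. Of all odd-start NPC 5hmC reads of the tiles, 43.5% lay in the 500 bases, which are 10% of a tile, and in 639 tiles (35.6%) over 50% did.

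ESC 5hmC had a peak at the same places. No ESC read placed the summits, but ESC reads counted toward the selection of the tiles. The limit on the ESC fold of the tile holds down the ESC level around the summit. Beyond 4 kb from the summit the ESC fold was 1.42 (1.39 to 1.45). In the 500 bases around the NPC summit the ESC fold was 3.20 (3.08 to 3.33), against 1.22 (1.20 to 1.24) at 500 to 2500 bases. Per base, ESC 5hmC reads were 2.74 times as dense (2.69 to 2.79) at the centre as around it. The inputs were nearly flat, with 1.05 times (1.01 to 1.08) in NPC and 1.04 times (1.01 to 1.08) in ESC. By tile, the median was 7 ESC 5hmC reads in the 500 bases, and no ESC read fell there in 23 tiles. Against 10% of the input of the tile, with 0.5 reads added, an ESC fold of at least 2 was found there in 1133 of the 1797 tiles (63.1%). The same count gave 86.3% of the tiles enriched in both, 40.9% of tiles with 10 to 19 NPC 5hmC reads that met the rest of the rule, and 28.9% of tiles 50 kb away. With so few reads per tile these shares are imprecise, and the summed values above are the firmer measure.

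At the summit the NPC/ESC ratio was 1.11 (1.05 to 1.17), against 0.631 for whole tiles. The summit is the place of most NPC reads, in tiles chosen for many NPC and limited ESC reads. This choice favours a higher ratio there, and no summit of ESC reads was measured, so the ratio is description. In the tiles enriched in both, the NPC fold at the summit was 16.9 (16.3 to 17.5) and the ESC fold 5.67 (5.47 to 5.87), a ratio of 0.555 (0.528 to 0.583). There the ESC fold at 500 to 2500 bases was 2.75 (2.71 to 2.79). Both sets had to pass the same NPC limits and were divided by the ESC fold, so the similar NPC level and the different ESC level describe the choice of tiles.

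ESC 5hmC reads were denser at the summit than around it in every band of the ESC fold. The ESC fold at the summit was 3.79 (3.56 to 4.03) in tiles with an ESC fold of 1.5 to 2, 3.26 (3.06 to 3.48) at 1 to 1.5 and 2.31 (2.12 to 2.53) at 0.5 to 1. In the 33 tiles below 0.5 it was 1.04 (0.781 to 1.39), against 0.529 (0.456 to 0.615) around it. In that band the inputs were denser at the summit too, 1.46 times (1.15 to 1.83) in NPC and 1.62 times (1.26 to 2.05) in ESC. The NPC fold at the summit stayed between 16.3 and 20.2 in the 4 bands. The bands are of the ESC fold of the whole tile, summit included, so the order of the ESC values is description.

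Similar peaks were found in other tiles. In 12246 tiles with 10 to 19 NPC 5hmC reads that met the rest of the rule, the NPC fold at the summit was 10.7 (10.5 to 10.9) and the ESC fold 2.33 (2.29 to 2.37), against 1.07 (1.06 to 1.07) around it. In 3348 kept tiles at 50 kb from an NPC-only tile with under 20 NPC 5hmC reads, the NPC fold was 3.12 (2.98 to 3.26) and the ESC fold 2.07 (2.01 to 2.14), against 1.33 (1.32 to 1.35) around it. The ESC density at the NPC summit was 1.58 times that around it in those distant tiles. Their few NPC reads place a summit less well (separate places tied in 26.5%), so the size of this contrast cannot be compared with that of the NPC-only tiles.

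**Figure D2:**
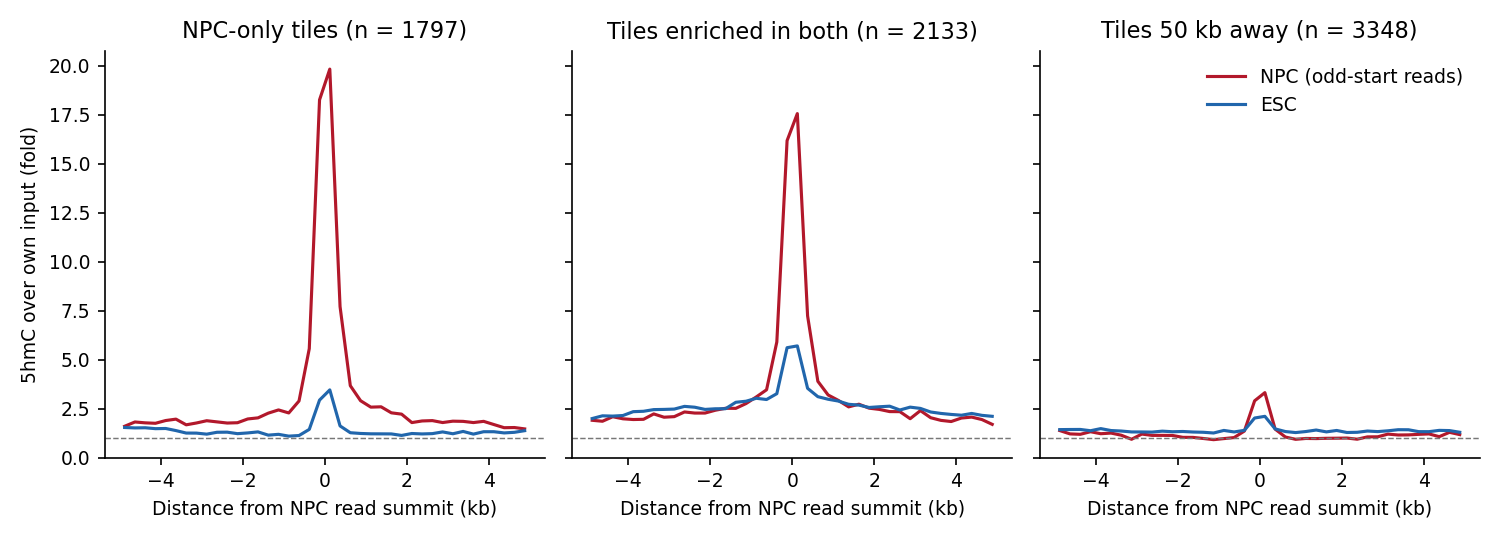
Fold over own input against distance from the NPC summit of each tile, in steps of 250 bases, summed over the NPC-only tiles, the tiles enriched in both cell types and the tiles at 50 kb from an NPC-only tile. The summit was chosen on even-start NPC reads and the NPC line uses odd-start reads. In the NPC-only tiles NPC rises to 19.04 and ESC to 3.20 over the same 500 bases, on an ESC level near 1.22.

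Some named tiles show these peaks in reads, here with all NPC reads counted, also those that chose the summit. At chromosome 1, 75830001 to 75835000, with 51 NPC 5hmC reads over 17 input reads and 30 ESC reads over 15, the summit at 75834001 to 75834500 held 44 of the NPC reads and 25 of the ESC reads, with 1 NPC and 2 ESC input reads. At chromosome 10, 79060001 to 79065000, the summit held 37 of 47 NPC and 31 of 55 ESC 5hmC reads, with 2 input reads in each cell type. At chromosome 6, 113730001 to 113735000, it held 30 of 50 NPC and 21 of 50 ESC reads. In these 3 tiles the narrow peak of both cell types made up much of the signal. A different picture was seen at chromosome 2, 17850001 to 17855000, where the summit held 20 of 44 NPC reads and 2 of 25 ESC reads. At chromosome 12, 99800001 to 99805000, it held 15 of 32 NPC and 2 of 11 ESC reads. At chromosome 13, 77575001 to 77580000, the summit held 20 of 28 NPC and 11 of 14 ESC 5hmC reads, but also 22 of 27 NPC and 24 of 33 ESC input reads. There the inputs peaked at the same place as the 5hmC reads.

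Both cell types were tagged before mixing, so reads of the 2 5hmC libraries at the same start and strand were counted. Of the NPC 5hmC reads in NPC-only tiles, 1.57% shared a position with an ESC 5hmC read, against a mean of 1.25% at offsets of 5 to 14 bases. Over all kept tiles these shares were 1.03% and 0.854%. Without the shared positions, 1708 of the 1797 tiles still had at least 20 NPC 5hmC reads and an NPC fold of at least 2, and the ESC fold at the summit was 3.11 (2.99 to 3.23) without ESC reads at such positions. In the 5hmC libraries 97.9% (ESC) and 98.5% (NPC) of positions held 1 read. A molecule read under the wrong tag would thus seldom share a position with its copy, and such reads were not tested by these counts. Positions with more than 1 copy made up 2.19% of NPC 5hmC positions in NPC-only tiles against 1.43% in kept tiles, and 1.94% against 2.04% in ESC 5hmC.

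The strand limit removed tiles with over 75% of NPC reads on 1 strand (median 82.6%), yet a lean remained and ESC shared it. The strand with more reads held a median of 60% of the NPC 5hmC reads of a tile. In NPC-only tiles with at least 20 reads of an input, this median was 56.5% in NPC input and 57.1% in ESC input. The lean of a typical single tile was thus not far above that of the inputs. NPC 5hmC reads were more numerous on the plus strand in 817 tiles and on the minus strand in 866, by any margin. In the former 55.5% (54.9 to 56.0) of ESC 5hmC reads were on the plus strand, and in the latter 44.9% (44.3 to 45.4). The inputs did not follow, with 49.2% (48.4 to 49.9) and 50.2% (49.4 to 50.9) in NPC and 49.99% (49.2 to 50.8) and 50.4% (49.5 to 51.2) in ESC. The ESC share moved in step with the NPC share. It was 40.8% where 25 to 35% of NPC reads were on the plus strand, then 45.5%, 50.8% and 53.8%, and 59.3% where 65 to 75% were. Summed over all NPC-only tiles 50.1% of ESC 5hmC reads were on the plus strand, because tiles that lean either way cancel in the sum. By tile, 78 of 1467 NPC-only tiles with at least 20 ESC 5hmC reads (5.32%) had over 75% of them on 1 strand. This share was 4.62% over all kept tiles with as many ESC 5hmC reads. In ESC input it was 0.722% of 554 NPC-only tiles with at least 20 reads.

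**Figure D3:**
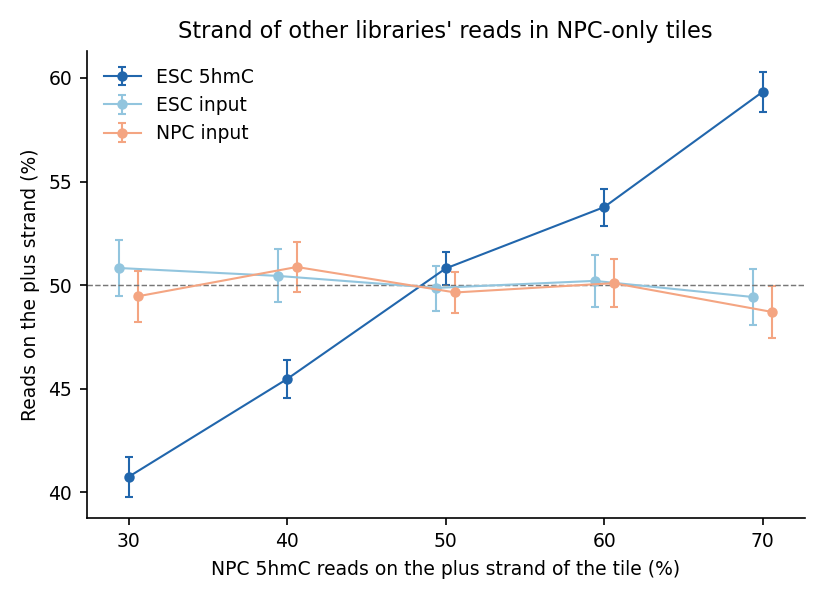
Plus-strand share of ESC 5hmC, ESC input and NPC input reads in NPC-only tiles, grouped by the plus-strand share of the NPC 5hmC reads in the tile. Bars are 95% intervals. ESC 5hmC climbs from 40.8% to 59.3%, while both inputs stay between 48.7% and 50.9%.

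At the summit the shared lean was stronger. Where most odd-start NPC reads in the 500 bases were on the plus strand (711 tiles), 66.8% (65.6 to 68.0) of ESC reads there were too. Where most were on the minus strand (816 tiles), the ESC share on plus was 33.2% (32.1 to 34.4). In the tiles enriched in both the values were 62.8% (61.9 to 63.6) and 36.6% (35.8 to 37.5). In the distant tiles at 50 kb they were 59.6% (58.03 to 61.3) and 39.3% (37.6 to 40.9). The summit at chromosome 1, 75834001, was an extreme case, with all 25 ESC reads on the plus strand. The lean was thus also seen in tiles of other kinds. Of 994 NPC-only tiles with at least 5 odd-start NPC reads at the summit, 113 (11.4%) had all of them on 1 strand there. This share was 10.9% in the tiles enriched in both, 9.82% in the tiles with 10 to 19 reads, 17.4% of 92 distant tiles, and 42.4% of 460 tiles that the strand limit had left out. It was close to that of the other tiles held to the limit.

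The NPC-only tiles lay in surroundings with raised 5hmC. In the tiles directly next to them, without NPC-only tiles themselves, the NPC fold was 1.49 (1.47 to 1.51) and the ESC fold 1.45 (1.44 to 1.47). At 10 kb they were 1.38 (1.36 to 1.40) and 1.45 (1.44 to 1.47), at 50 kb 1.31 and 1.43, at 100 kb 1.24 and 1.45, and at 1000 kb 1.10 and 1.31. The NPC fold thus fell with distance, while the ESC fold stayed between 1.41 and 1.48 over the first 100 kb. Around tiles enriched in both, NPC fell from 1.58 next to the tile to 1.30 at 50 kb and ESC from 1.98 to 1.78. The NPC level around the 2 kinds of tile was close, and the ESC level was the lower of the pair around NPC-only tiles at every distance. The ESC level next to an NPC-only tile differed between the bands, from 1.11 (1.02 to 1.22) next to the tiles with an ESC fold below 0.5 and 1.12 (1.09 to 1.15) next to those of 0.5 to 1, to 1.64 (1.61 to 1.67) next to those of 1.5 to 2, while the NPC fold next to them lay between 1.35 and 1.58.

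**Figure D4:**
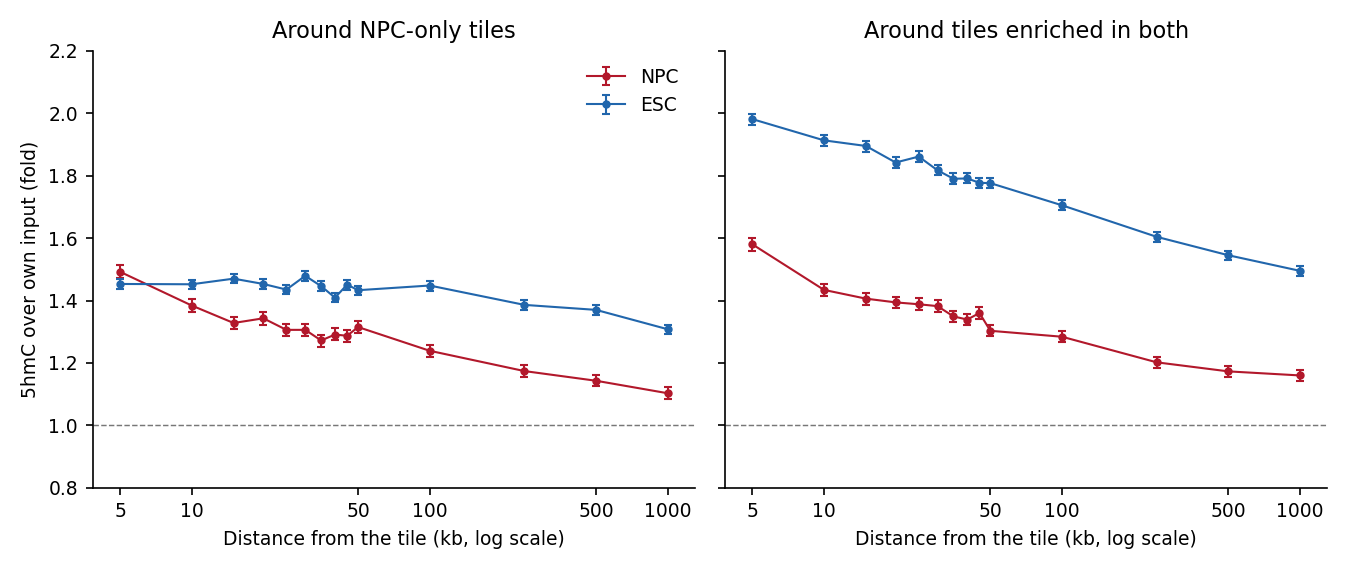
Fold over own input in kept tiles at 5 to 1000 kb from NPC-only tiles (left) and from tiles enriched in both cell types (right), without the tiles of the set. Bars are 95% intervals and the distance axis is logarithmic. Around NPC-only tiles NPC falls from 1.49 to 1.10 and ESC holds near 1.45 up to 100 kb.

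On a wider scale, the median NPC fold within 500 kb of an NPC-only tile, without the 2 nearest tiles on each side, was 1.15, and the median ESC fold was 1.31. The same medians over all kept tiles were 0.917 and 0.770, and over the tiles enriched in both 1.24 and 1.63. The NPC fold of the surroundings exceeded 1 for 77.8% of NPC-only tiles and the ESC fold for 73.1%, against 36.9% and 36.7% of all kept tiles. The tiles enriched in ESC alone had similar surroundings, with medians of 1.12 and 1.44 and shares of 73.8% and 83.5%. Raised surroundings in both cell types were thus also found around enriched tiles of other kinds.

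With a lower limit of 10 reads for a call, 21.7% of the tiles next to an NPC-only tile were enriched in NPC and 25.1% in ESC, against 6.08% and 10.8% of all kept tiles. A fixed read limit is met more easily where coverage is higher. The 3440 neighbouring tiles held 66923 NPC input reads, against a mean of 14.15 per kept tile. The part of coverage in these shares and in the neighbour counts that follow was not tested. Another NPC-only tile was the direct neighbour of 94 tiles (5.23%), against 0.780% of kept tiles, and a tile enriched in both was the neighbour of 111 (6.18%), against 0.916%. Most stood alone. There were 1703 single tiles, 44 pairs and 2 runs of 3. The median distance from 1 NPC-only tile to the next on its chromosome was 395 kb, and 280 of 1778 distances (15.7%) were at most 50 kb.

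The runs of 3 were at chromosome 5, 112110001 to 112125000, and chromosome 11, 109065001 to 109080000. On chromosome 5 the NPC 5hmC reads were 26, 44 and 21 in order, over 31, 18 and 38 input reads, and the ESC reads were 40, 33 and 24 over 14, 23 and 19. The enrichment was centred on the middle tile, whose NPC fold was 9.21 (5.21 to 16.9), and which exactly met the strand limit with 75% of reads on plus. The summits of the 3 tiles began at 112110901, 112115001 and 112121601, which are separate places. On chromosome 11 the NPC reads were 30, 27 and 26 over 22, 26 and 22, and the ESC reads 23, 21 and 35 over 22, 22 and 19. There the NPC fold was 5.14, 3.91 and 4.45, and the NPC signal was similar over the 15 kb while the ESC fold stayed between 0.670 and 1.29.

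By chromosome, NPC-only tiles were from 0.254% of kept tiles on chromosome 3 (76 tiles, 0.200 to 0.318) to 0.711% on chromosome 11 (165 tiles, 0.607 to 0.828). Chromosome 5 followed with 0.598% and chromosome 8 with 0.534%. The tiles enriched in both followed a similar order, from 0.216% on chromosome 14 to 0.918% on chromosome 11. The number of NPC-only tiles per tile enriched in both ran from 0.531 on chromosome 15 to 1.53 on chromosome 6, where 119 stood against 78. It was above 1 on chromosomes 1, 3, 14, 16 and 18 as well, from 1.15 to 1.22. Coverage differed in the same direction at the extremes. Chromosome 11 had 4.76 NPC 5hmC and 16.9 NPC input reads per kept tile, and chromosome 3 had 3.15 and 12.6. It did not follow the shares throughout. Chromosome 9 had 3.97 and 15.04 reads with a share of 0.359%, and chromosome 6 had 3.54 and 13.9 with 0.426%. The part of coverage in the differences was not tested.

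Within chromosomes the tiles were uneven. Of 242 windows of 10 Mb, 21 held no NPC-only tile, and the median was 5. The fullest window, chromosome 5 from 110000001 to 120000000, held 55 of its 1978 kept tiles (2.78%) and 76 tiles enriched in both. Chromosome 8 from 120000001 to 130000000 held 49, and chromosome 11 from 110000001 to 120000000 held 42. Each of these windows was also rich in tiles enriched in both, with 78 and 67 in the last 2.

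**Figure D5:**
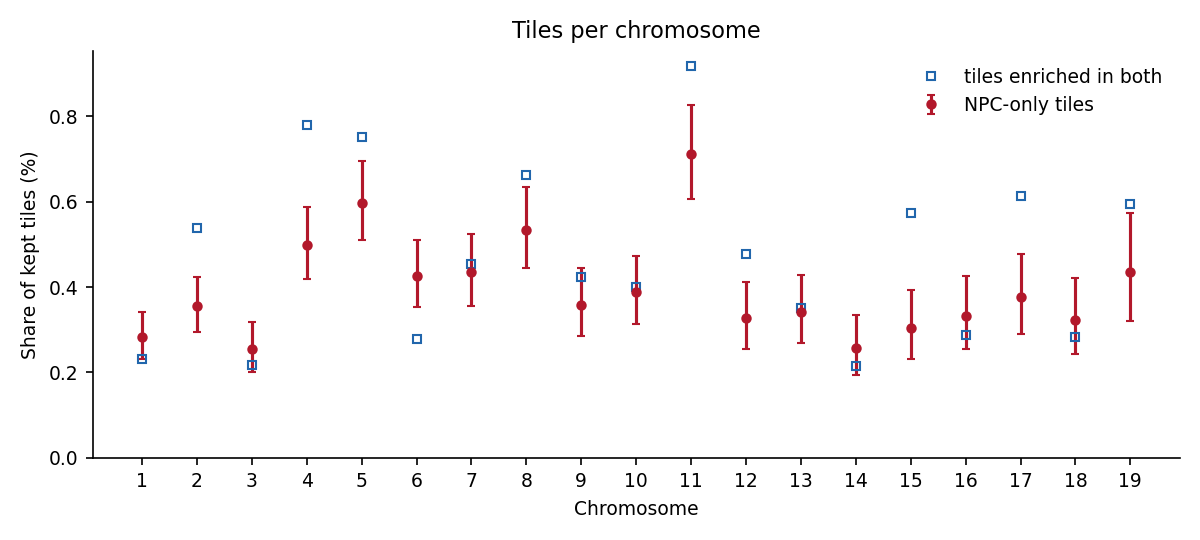
NPC-only tiles as a share of the kept tiles of each chromosome, with 95% binomial intervals, and the share of tiles enriched in both cell types (open squares, without intervals). Chromosome 11 is highest for both, at 0.711% and 0.918%, and on chromosomes 1, 3, 6, 14, 16 and 18 NPC-only tiles outnumber tiles enriched in both.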

How the data were processed

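Each deposited file lists read positions on build mm9 with a whole number per position and strand. No header names this number, and it was taken as the read count. The authors' aligner was Bowtie 0.12.7, per the submitters' processing notes, and the counts were not scaled in the deposited files as far as the values show. Any filter on mapping quality is not stated in those notes, the labels or the files. Distinct reads (at least 97.9% of positions held 1 read) were counted in 5 kb tiles with numpy 2.4.6, scipy 1.17.1 and pandas 2.3.3 under Python 3.11.15. With 1 library per group no p-value was computed. Intervals are exact (Clopper-Pearson, or the conditional odds ratio for NPC/ESC ratios, with a log-normal form where a count passed 2000). Folds summed over tiles, and folds of named tiles printed with an interval, have no pseudocount. The rule and the placing of summits were tested on simulated data with known answers. The bounds of the ratio were compared with those of scipy on fixed sets of counts.

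The tiles, the comparisons and their alternatives were chosen with earlier results of these data known. Named tiles were the 8 highest NPC folds and 6 highest NPC/ESC ratios with at least 20 reads in each input, the 4 with most NPC 5hmC reads, the longest runs, and those next to each limit, from which examples are given. Alternatives were other limits, tile sizes and placements, inputs, pseudocounts and read splits. Gene features, gene lists, base composition and sequences were not analysed here, for want of a genome and gene models of this build among the sources used.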

Additional observations from a re-analysis of the deposited data

Results flagged for a closer look

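Chromosome X took no part in the comparisons. Of its 23910 kept tiles, 5 met the same rule, which is 0.0209%. They held from 21 to 28 NPC 5hmC reads. The highest NPC fold among them was 16.5, at chromosome X, 50820001 to 50825000, with 28 NPC 5hmC reads over 6 input reads and 7 ESC 5hmC reads over 4. NPC 5hmC coverage of chromosome X was 1.27 reads per kept tile, so that a minimum of 20 reads asked for a higher enrichment there than on the other chromosomes.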

How the results depend on the processing

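No library could be left out, since each group had 1, and no paired analysis was possible because the result comes from no test. Of 19 alternatives, 12 kept the number of tiles within 1.5 times 1797. It was 14043 with a minimum of 10 reads and 263 with 30, 1085 and 402 with the ESC fold below 1.5 and 1, 400 with 20 reads in each input, 310 with 2 kb tiles and 5243 with 10 kb tiles.

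In the same order of settings, the NPC/ESC ratio was 0.509, 0.780, 0.787, 1.08, 0.525, 1.36 and 0.410. It was 0.667 with an NPC fold of 3, 0.656 without the strand limit, 0.607 with a pseudocount of 2, 0.613 over summed inputs and 0.681 with ESC 5hmC thinned. It was above 1 only with ESC fold below 1 or 2 kb tiles. The first follows from the choice of tiles with few ESC reads, and for the second the cause was not tested.

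The NPC fold next to the tiles stayed above 1 in all 19. It was 1.16 and 1.64 with 10 and 30 reads, 1.45 with ESC fold below 1, 1.54 and 1.43 with a strand limit of 65% and none, 1.56 with 20 input reads, 1.73 and 1.22 with 2 and 10 kb tiles and 1.52 with ESC thinned. The ESC fold there was 1.29 with 10 reads, 1.43 with an NPC fold of 3, 1.33 and 1.13 with ESC fold below 1.5 and 1, 1.42 without the strand limit, 1.55 with 20 input reads, 1.48 with a pseudocount of 2, 1.40 over summed inputs, 1.54 and 1.37 with 2 and 10 kb tiles and 1.51 with ESC thinned.

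In held-out reads, the NPC and ESC folds were 2.203 and 1.27 with a minimum of 5 reads and 6.23 and 1.89 with 20. Across strands, where no strand limit was set, they were 2.85 and 1.39. NPC was 3.62 in the split by start position without the strand limit.

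The peak width was 1000 bases in steps of 500. The next alternatives were chosen after seeing the data. At the summit, the NPC and ESC folds were 13.0 and 2.38 over 1 kb, 24.4 and 3.66 with 30 reads, 19.8 and 2.17 with ESC fold below 1, 18.04 and 3.06 with a strand limit of 65%, 21.9 and 3.51 without one, and 15.1 and 2.68 with 20 input reads. With the last of tied places they were 19.2 and 3.20. ESC was 2.83 with ESC fold below 1.5. The ESC plus-strand share differed between NPC-plus and NPC-minus tiles by 10.6 percentage points, and by 13.5 with 30 reads, 12.7 and 14.8 with ESC fold below 1.5 and 1, 6.25 with a strand limit of 65% and 16.7 without one. The sign was the same in each. The NPC 5hmC depth limits the set: 1168 of the 1797 tiles had under 25 reads.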
